A study of Homo sapiens with 4 samples.

Results

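LIN28B, the IGF2BP and HMGA families and the core microRNA machinery were followed in the neuroblastoma line IMR-32, an established MYCN-amplified human cell line, after knockdown of the transcription factor NeuroD1. The 10 genes were taken by symbol from the raw count table, which holds 60612 genes: LIN28B, IGF2BP1, IGF2BP2, IGF2BP3, HMGA1, HMGA2, DICER1, DROSHA, DGCR8 and AGO2. All 10 were in the table and 9 had enough counts to be tested, among 17537 genes tested in all. RNA sequencing covered 2 shControl libraries, named for a control short hairpin RNA (shRNA) but classed as wild type in the labels and parental in the series text, and 2 shNeuroD1 libraries from cells with a doxycycline-inducible hairpin against NeuroD1. All 4 libraries came from cells given doxycycline at 1 µg/mL for 48 h. The sample titles, shNeuroD1-1 and shNeuroD1-2, are also the names of the study's 2 hairpins, and the labels do not say which hairpin was used. A sheet name and column names of the study's supplementary data place both shNeuroD1 libraries under a single hairpin. On that reading, followed here, no second hairpin was analysed. It is also not stated that the libraries came from separate cultures. The p-values therefore measure the spread between these libraries, which may be technical.

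LIN28B is an RNA-binding protein that holds back the maturation of let-7 microRNAs by binding their precursors. Precursors of let-7 can also be marked for decay by terminal uridylyltransferases. Mature let-7 pairs through its seed with sites in 3′ untranslated regions (UTRs) and lowers the mRNAs that carry them. The targets include LIN28B itself, which closes a double-negative loop, as well as HMGA2 and the IGF2BP genes. High LIN28B is a known feature of high-risk neuroblastoma. DROSHA and DGCR8 cut primary microRNA transcripts in the nucleus, DICER1 cuts the exported precursor, and AGO2 is the Argonaute that holds the mature strand and can slice a paired target.

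The let-7 family shares a single seed, and it is shown here for the 4 family members with a hairpin inside a gene that changed. Other hairpins of let-7a and let-7f lie in genes that were not called or not analysed. The seed, bases 2 to 8, is in capitals in the mature sequences, which are those of RefSeq, 5′ to 3′.
let-7a-5p: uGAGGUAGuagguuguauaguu
let-7f-5p: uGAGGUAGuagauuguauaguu
let-7g-5p: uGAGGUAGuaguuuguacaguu
miR-98-5p: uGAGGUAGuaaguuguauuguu

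The seed was matched to the 3′ UTR of 1 coding transcript a gene on GRCh38, as CTACCTC (bases 2 to 8 of the microRNA), as CTACCTCA (the same followed by A) and as TACCTCA outside a CTACCTCA match. LIN28B held 5 matches in a UTR of 4549 bases, of which 2 were 8-base matches. IGF2BP1 also held 5, in 6206 bases, with 3 of 8 bases. HMGA2 held 7 in 3003 bases. Of 18632 3′ UTRs of at least 50 bases, 14.3% held any of these matches and 3.35% an 8-base match, so LIN28B and IGF2BP1 lay above 99.95% of them in number of matches, in part because their UTRs are long. DROSHA and DGCR8 held none. IGF2BP2, AGO2 and DICER1 held 2, 3 and 2, and IGF2BP3 and HMGA1 held 1 each. The 8-base matches of the let-7 target members, and the HMGA1 match, are given as 22 bases of the coding strand, with the letters that pair with the seed, and the A opposite the microRNA's first base where present, in capitals.
LIN28B, chr6:105078813-105078834, plus strand, position 44 of the UTR: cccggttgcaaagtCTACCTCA
LIN28B, chr6:105081422-105081443, plus strand, position 2653: tttacagcaaaaggCTACCTCA
IGF2BP1, chr17:49051062-49051083, plus strand, position 1632: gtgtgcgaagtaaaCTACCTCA
IGF2BP1, chr17:49053699-49053720, plus strand, position 4269: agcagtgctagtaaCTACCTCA
IGF2BP1, chr17:49054353-49054374, plus strand, position 4923: tataaatggattaaCTACCTCA
IGF2BP2, chr3:185644220-185644241, minus strand, position 1304: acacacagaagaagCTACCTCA
IGF2BP3, chr7:23311795-23311816, minus strand, position 560: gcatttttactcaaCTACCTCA
HMGA1, chr6:34245830-34245851, plus strand, position 960: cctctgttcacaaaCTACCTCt
HMGA2, chr12:65963299-65963320, plus strand, position 21: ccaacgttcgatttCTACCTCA

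**Figure D1:**
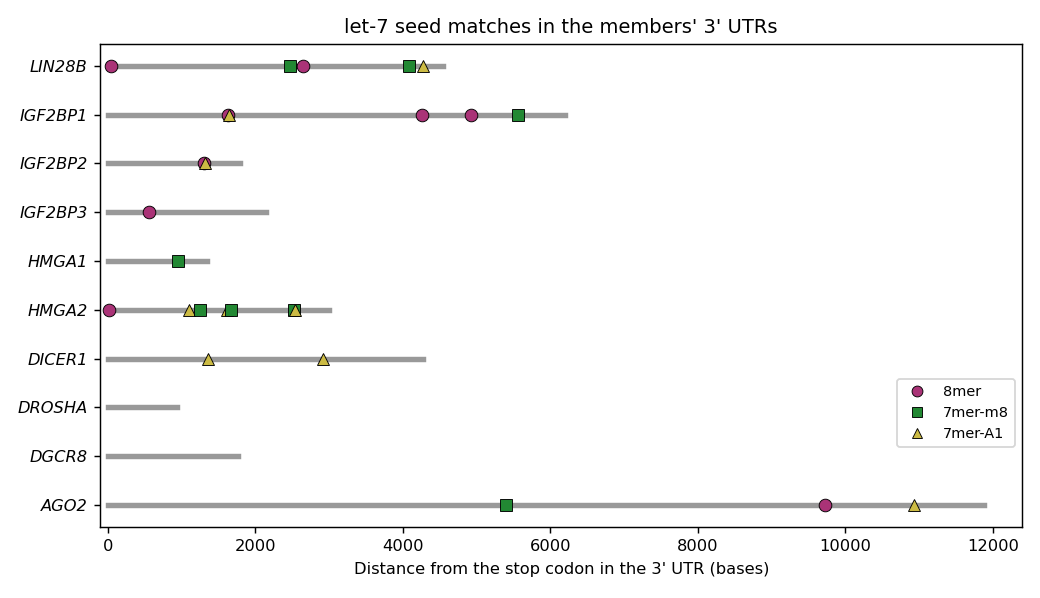
let-7 seed matches along the 3′ UTR of each gene, plotted as distance from the stop codon in bases. Grey bars give UTR length, and symbols give 8-base matches (circles), 7-base matches to bases 2 to 8 (squares) and 7-base matches ending in A (triangles). LIN28B, IGF2BP1 and HMGA2 hold 5, 5 and 7 matches, and DROSHA and DGCR8 hold none.

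NEUROD1, the targeted gene, was read first as a check of the labels. Counts of 6174 and 6582 in the control libraries stood against 969 and 886 after knockdown (log2 fold change -2.77, SE 0.050, adjusted p = 8.6e-29 in edgeR's quasi-likelihood test). On the deposited FPKM values the knockdown itself was not called (-0.96 on log2(FPKM + 1), limma adjusted p = 0.291), which bears on every FPKM value given as an alternative. Libraries held between 14665210 and 16482463 counts. The neuroblastoma markers PHOX2A, HAND2, GATA3, ISL1, CHGA and CHGB were abundant in all 4 libraries, while TH and DBH were at 10 to 88 counts. Immune, endothelial and epithelial markers were low: their summed CPM (counts scaled to library size, here with TMM factors) did not exceed 0.592, 1.70 and 1.84 in any library. Mesenchymal markers summed to 125 and 136 CPM in shControl and 107 and 105 in shNeuroD1, with PRRX1 at 0 counts in every library, and Schwann markers to between 3.97 and 8.80 CPM. DNA replication genes moved with the knockdown: MCM2 to MCM7 and PCNA, 7 of 7, fell, and their summed level was 2043 and 1998 CPM in shControl and 904 and 898 in shNeuroD1. The part of this shift in the results that follow was not tested. In bulk RNA, fewer cells of a type and less RNA per cell cannot be told apart.

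Per length, as TPM (from counts over the summed exon length in GENCODE 29, scaled to the same total in each library), HMGA1 was the most abundant of the 10 genes in shControl at 740.4 ± 9.57 TPM (SD, n = 2), followed by IGF2BP1 at 226 ± 21.9. DROSHA (46.6 ± 1.28) and DICER1 (45.7 ± 1.28) came next, and their libraries overlapped. IGF2BP3 (39.4 ± 0.952) and LIN28B (38.9 ± 0.210) overlapped as well. DGCR8 stood at 33.3 ± 1.15 TPM, AGO2 at 29.5 ± 1.33 and IGF2BP2 at 19.7 ± 0.00418, each apart from its neighbours in the order. HMGA2 was at the limit of detection.

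Of the 9 genes tested, 4 were lower in shNeuroD1 (LIN28B, IGF2BP1, DROSHA and DICER1) and 1 was higher (AGO2) at an adjusted p under 0.05. Knockdown moved much of the transcriptome, with 28.2% of all genes tested called lower and 26.8% higher, 55% in either direction, and the count of 5 in 9 is near that background. None of the 9 passed a log2 fold change of 1 in size as well, which 5.14% of all genes did on the lower side and 8.79% on the higher side. The CPM values of the groups did not overlap for any of the 9, nor for 76.1% of all genes tested. The median size of change over all genes tested was 0.34 on the log2 scale, and LIN28B and IGF2BP1 lay above it while the other 7 lay below.

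**Figure D2:**
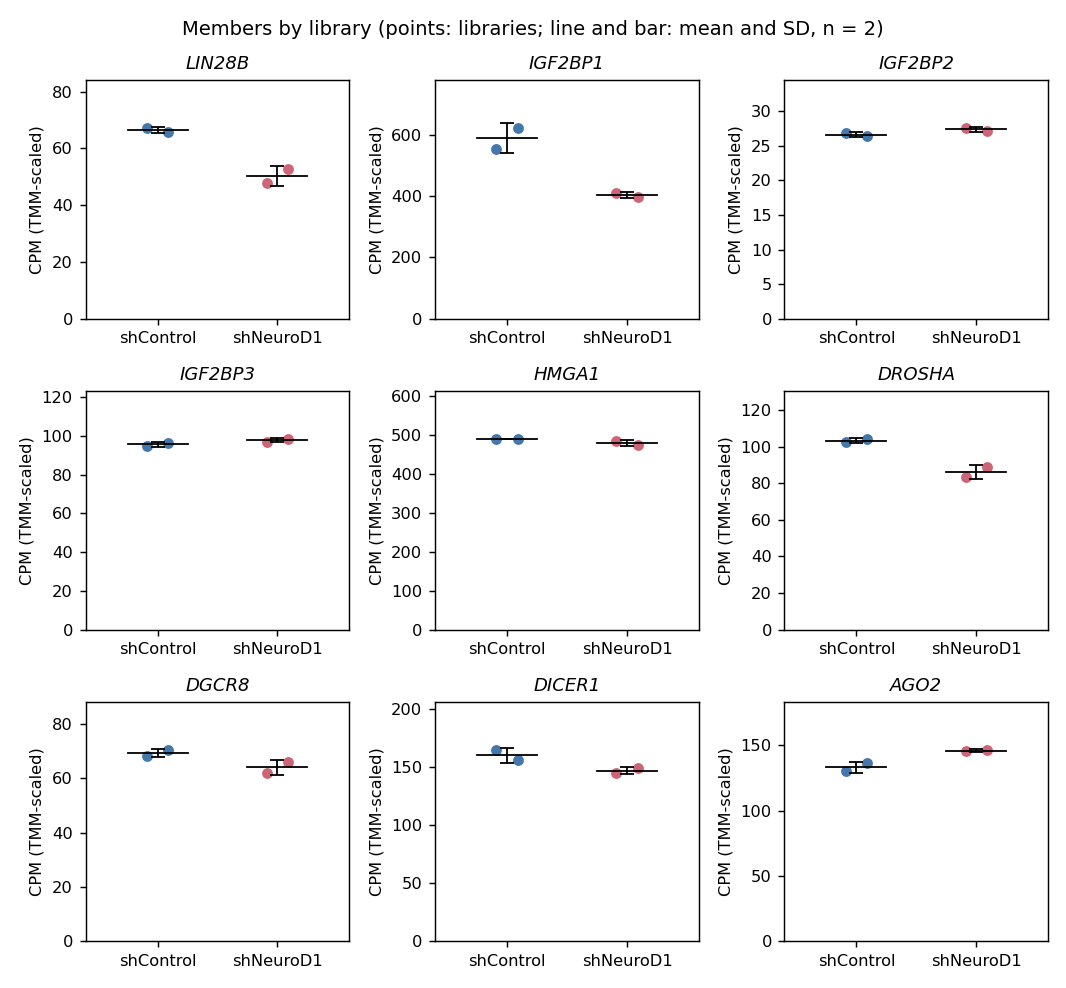
TMM-scaled CPM of the 9 tested genes in each library, with axes starting at 0 (blue shControl, red shNeuroD1). Points are libraries, and the line and bar are the mean and SD of n = 2. LIN28B, IGF2BP1 and DROSHA are lower in both shNeuroD1 libraries, and the IGF2BP2, IGF2BP3 and HMGA1 means differ by under 4% of the control mean.

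LIN28B fell. It had 993 and 1043 counts in shControl against 728 and 804 in shNeuroD1, which is 67.4 and 65.7 CPM against 47.9 and 52.8 CPM. Both knockdown libraries were below both control libraries, by more than the spread within either group. The log2 fold change was -0.40 (SE 0.064, 95% confidence interval -0.53 to -0.27, adjusted p = 2.7e-06 in edgeR), and the mean CPM in shNeuroD1 was 75.65% of that in shControl. LIN28B lies at chr6:104936616-105083332 on the plus strand (GRCh38), and 67 bases of its exons overlap LIN28B-AS1 on the other strand. Whether counting used strand is not given in the sources used here.

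LIN28A, the paralogue of LIN28B that acts in early embryos, had 0, 0, 1 and 0 counts, under the limit of 3 counts in each library. No fold is given for it.

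The deposited transcript tables list LIN28B with 2 starts. The upstream start, at 104940866-104941012 on chromosome 6, held 16.3% and 37.7% of the summed start FPKM in shControl and 22.1% and 28.5% in shNeuroD1. The groups overlapped, so no change in the choice of start was seen. The downstream start at 104957107-104957260 held the larger share in every library, from 62.3% to 83.7%.

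The genes with the profile most like that of LIN28B over the 4 libraries, among the 10559 others whose mean CPM reached 10, were RELT, CEP131 and CCDC91. Their distance to LIN28B, in log2 CPM after centring, was 0.013, 0.023 and 0.023, and their log2 fold changes were -0.41, -0.38 and -0.39. Over only 4 libraries, 281 genes lay within a distance of 0.1, so the likeness is not particular to these 3.

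IGF2BP1, an RNA-binding protein that stabilises bound mRNAs such as those of MYC family genes, fell the most of the 9 tested. Counts were 8150 and 9890 in shControl and 6217 and 6034 in shNeuroD1, or 553 and 623 CPM against 409 and 396 CPM. The control libraries were further apart from each other than the knockdown libraries, but the groups did not overlap. The log2 fold change was -0.55 (SE 0.046, 95% confidence interval -0.64 to -0.45, adjusted p = 6.5e-12 in edgeR). The exons of IGF2BP1 (chr17:48997412-49055650, plus strand) overlap those of 2 antisense genes by 37 and 76 bases.

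The other IGF2BP paralogues did not pass the test. IGF2BP2 was at 26.9 and 26.4 CPM in shControl and 27.7 and 27.2 in shNeuroD1 (log2 fold change 0.04, 95% confidence interval -0.13 to 0.22, edgeR adjusted p = 0.694). IGF2BP3, known as an oncofetal member of the family, was at 94.8 and 96.3 CPM in shControl and 97.1 and 98.6 in shNeuroD1 (0.03, interval -0.07 to 0.14, edgeR adjusted p = 0.611); under library totals alone it was called higher (0.15, adjusted p = 0.018). Those intervals leave room for changes of at most 0.22 and 0.14 on the log2 scale in either direction. IGF2BP3 shares 1521 bases of exon with MALSU1 on the other strand.

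The balance within the IGF2BP family moved with IGF2BP1. Per length, IGF2BP1 made up 78.3% and 80.2% of the summed IGF2BP TPM in shControl and 72.2% and 71.5% in shNeuroD1. IGF2BP3 went from 14.4% and 13.3% to 18.4% and 19.0%. The ratio of IGF2BP1 to IGF2BP3 in TPM was 5.45 and 6.04 in shControl against 3.93 and 3.76 in shNeuroD1, a change of -0.58 on the log2 scale, with no overlap between groups. An exact two-sided permutation test gave p = 0.333, the smallest that 2 libraries against 2 can give. The ratio to IGF2BP2 changed by -0.59 on the log2 scale, again with p = 0.333 (exact permutation test).

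HMGA1, a chromatin protein that binds AT-rich DNA, was at 491.1 and 491.3 CPM in shControl and 486 and 474 in shNeuroD1. The log2 fold change of -0.03 (95% confidence interval -0.12 to 0.05) had an edgeR adjusted p of 0.496, and it took the other sign when libraries were scaled by their totals alone (0.08). HMGA2, its paralogue and a classic let-7 target, had 0 and 3 counts in shControl against 2 and 2 in shNeuroD1. These counts do not exceed 3 and HMGA2 was not tested in the main fit, so no fold from that fit is given. The 7 let-7 matches of the HMGA2 UTR belong to an mRNA that was barely detectable at this depth, where 3 counts correspond to 0.182 to 0.205 CPM of the library total.

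DROSHA, the nuclease of the nuclear Microprocessor, fell. It was at 102 and 104 CPM in shControl and 83.2 and 88.7 CPM in shNeuroD1. All 4 values were ordered by group, with a log2 fold change of -0.26 (SE 0.054, 95% confidence interval -0.37 to -0.16, adjusted p = 9.6e-05 in edgeR). Its partner DGCR8, which binds the primary transcript, was at 68.4 and 70.5 CPM in shControl and 62.1 and 66.0 in shNeuroD1. The DGCR8 log2 fold change of -0.12 (interval -0.24 to 0.00) did not pass the test (edgeR adjusted p = 0.0964). DROSHA over DGCR8 in TPM was 1.41 and 1.39 in shControl against 1.26 and 1.26 in shNeuroD1, with no overlap between groups. The exact permutation test gave p = 0.333, the smallest that 2 libraries against 2 can give. DGCR8 exons overlap an antisense gene by 526 bases, TRMT2A by 12 bases, and the MIR1306 and MIR3618 hairpins, which lie in the DGCR8 transcript and are cut by the Microprocessor itself.

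DICER1, which makes the mature duplex, was at 165 and 156 CPM in shControl and 145 and 149 CPM in shNeuroD1. Its log2 fold change of -0.13 (SE 0.048, adjusted p = 0.0257 in edgeR) passed the threshold narrowly and was not called by DESeq2 (adjusted p = 0.104). It was also not called with shControl replicate 1, shNeuroD1 replicate 1 or shNeuroD1 replicate 2 left out (adjusted p = 0.133, 0.23 and 0.0936 in edgeR), and scaling by library totals took it to -0.01. AGO2 was at 130.2 and 136 CPM in shControl and 145 and 147 CPM in shNeuroD1 (log2 fold change 0.13, SE 0.048, adjusted p = 0.0201 in edgeR). AGO2 too was not called by DESeq2 (adjusted p = 0.204) or with shControl replicate 1, shNeuroD1 replicate 1 or shNeuroD1 replicate 2 left out (0.125, 0.122 and 0.163 in edgeR). The LIN28B, IGF2BP1 and DROSHA calls held in DESeq2 and with each library left out. On the deposited FPKM values limma called none of the 9, and IGF2BP1 alone had an unadjusted p under 0.05. Those tables differ between libraries of a group for some genes: the main HMGA1 start, at 34236873-34237317 on chromosome 6, held 83.5% and 81.0% of the summed start FPKM in shControl but 24.1% and 81.5% in shNeuroD1.

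**Figure D3:**
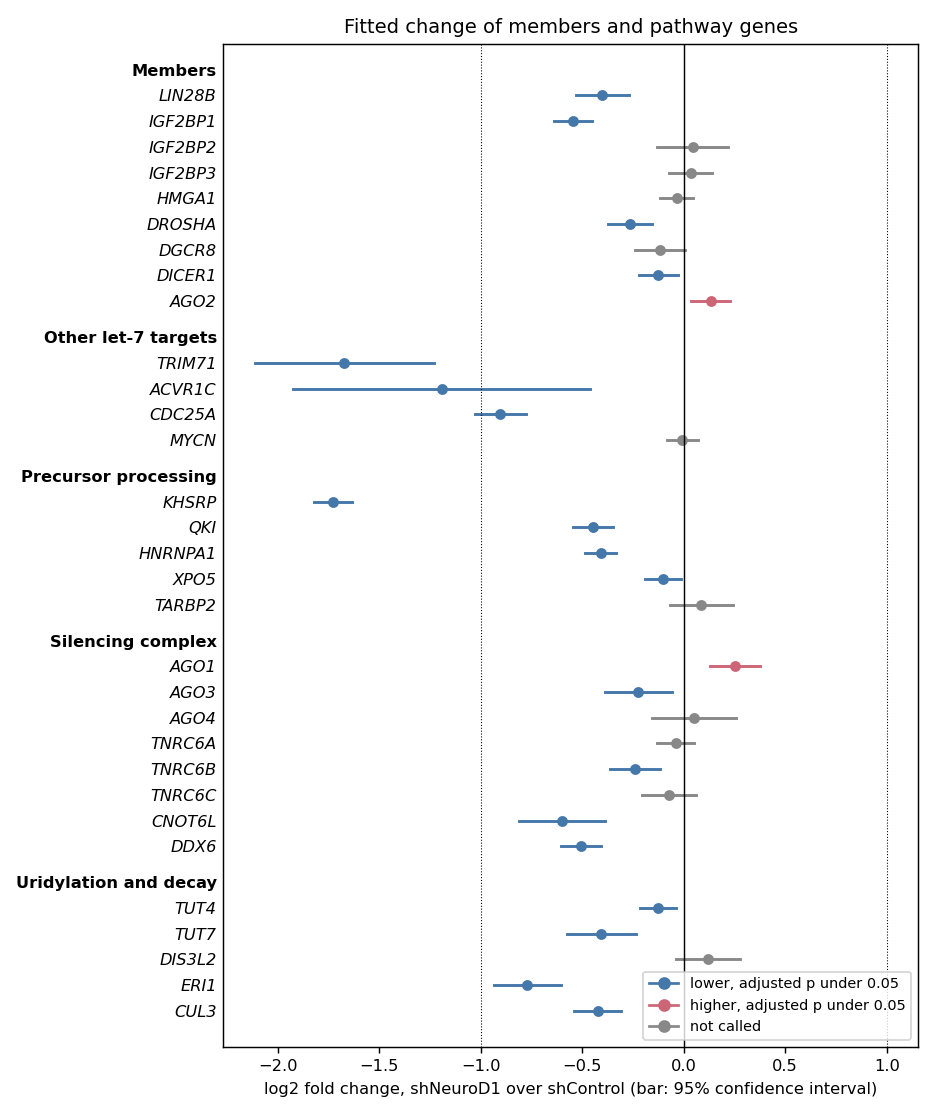
Fitted log2 fold change (shNeuroD1 over shControl) of the 9 tested genes and of other named pathway genes, with 95% confidence intervals from edgeR. Blue and red mark genes called lower or higher at the 0.05 threshold of the adjusted p, grey marks genes not called, and dotted lines mark a log2 fold change of 1 in size. TRIM71, ACVR1C and KHSRP alone among those drawn lie beyond the dotted line on the lower side.

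Other genes of the pathway were taken from 4 lists, which share some genes with each other and with the 10. The lists hold coding genes, while the shares over all genes tested include noncoding ones. Of the 13107 tested genes with a 3′ UTR of at least 50 bases, a closer background, 34.1% were called lower and 27.2% higher. Their median log2 fold change was -0.03. Among 35 published let-7 targets, the 6 target members and DICER1 included, 31 were tested: 15 were called lower and 3 higher, with a median log2 fold change of -0.13 against 0.01 over all genes tested. In per cent, 48.4 of the tested targets were called lower, against 34.1 of the closer background and 28.2 of all genes. Those called higher were 9.68, against 27.2 and 26.8. The strongest fall was in TRIM71, a let-7 target that acts as an RNA-binding ubiquitin ligase in stem cells and counts here also under the silencing list. Its counts were 97 and 112 in the shControl libraries against 34 and 31 after knockdown (log2 fold change -1.67, SE 0.22, adjusted p = 7.1e-08 in edgeR). Its UTR held 4 of the 8-base let-7 matches.

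ACVR1C, a type I activin receptor, had 33 and 34 counts in shControl against 15 and 14 in shNeuroD1 (log2 fold change -1.19, SE 0.36, adjusted p = 0.00547 in edgeR). At these low counts it was not called by DESeq2 (adjusted p = 0.112), nor in edgeR without shControl replicate 1 (0.0557). CDC25A, the phosphatase that releases CDK2 in late G1, was at 90.8 and 98.9 CPM in shControl and 49.4 and 52.1 CPM in shNeuroD1 (log2 fold change -0.90, SE 0.061, adjusted p = 3.3e-14 in edgeR). CDC25A is also a cell cycle gene, and the fall of the replication genes stands beside it. In the fit on deposited FPKM its sign turned (0.46 on log2(FPKM + 1), limma adjusted p = 0.733). MYCN, which carries 2 let-7 matches of 7 bases and is amplified in this line, was at 2024 and 1945 CPM in shControl and 1969 and 1980 in shNeuroD1, with overlapping groups (log2 fold change -0.01, 95% confidence interval -0.08 to 0.07, adjusted p = 0.886 in edgeR). Under library totals alone, where the median of all genes moves to 0.12, it took the other sign and was called higher (0.11, edgeR adjusted p = 0.0139).

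Among 16 genes that process primary and precursor microRNAs, all tested, 9 were called lower (56.2%) and 2 higher (12.5%). Of genes with a 3′ UTR, 34.1% were called lower and 27.2% higher, and of all genes 28.2% and 26.8%. The median log2 fold change of the list was -0.14. KHSRP, a KH-domain protein known to bind the terminal loop of let-7 precursors and to promote their cutting, fell the most. It had 4510 and 4895 counts in shControl against 1403 and 1421 in shNeuroD1, that is 306 and 308 CPM against 92.2 and 93.3 CPM. The libraries of each group lay close together, and the log2 fold change was -1.73 (SE 0.046, adjusted p = 1.7e-24 in edgeR), also called in the fit on deposited FPKM (-1.97 on log2(FPKM + 1)). QKI, an RNA-binding protein with a role in several microRNAs, was at 175 and 190 CPM against 134 and 134 CPM (log2 fold change -0.45, adjusted p = 1.8e-09 in edgeR), and at -0.17 with no call on log2(FPKM + 1) (limma adjusted p = 0.393). HNRNPA1, which competes with KHSRP at the let-7a loop, fell by 0.41 on the log2 scale (adjusted p = 6.2e-11 in edgeR; 0.113 in limma on log2(FPKM + 1)). XPO5, the nuclear export factor of precursors, had a log2 fold change of -0.10 at an edgeR adjusted p of 0.0494, and 0.01 under library totals alone. That call was lost in DESeq2 (adjusted p = 0.0995) and without shControl replicate 2, shNeuroD1 replicate 1 or shNeuroD1 replicate 2 (0.228, 0.314 and 0.144 in edgeR). TARBP2, the DICER1 partner, did not pass (0.09, edgeR adjusted p = 0.353), except under library totals alone (0.20, adjusted p = 0.0276).

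Of 28 genes of the silencing complex and its deadenylation and decapping partners, all tested, 13 were called lower (46.4%) and 4 higher (14.3%). Genes with a 3′ UTR were called lower in 34.1% and higher in 27.2%, and all genes in 28.2% and 26.8%. The median log2 fold change of the list was -0.09. The Argonautes did not move together. AGO1 was at 61.5 and 67.4 CPM in shControl and 74.9 and 78.8 CPM in shNeuroD1, a rise of 0.25 on the log2 scale (SE 0.060, adjusted p = 6.7e-04 in edgeR). AGO3 was at 32.5 and 33.7 CPM against 27.4 and 29.4 CPM, a fall of 0.22 (SE 0.082, adjusted p = 0.0204 in edgeR), and AGO4 gave 0.05 (adjusted p = 0.693). The AGO1 call was lost without shControl replicate 1 (adjusted p = 0.0909), and the AGO3 call in DESeq2 (0.19) and in edgeR without shControl replicate 1, shControl replicate 2 or shNeuroD1 replicate 1 (0.0856, 0.135 and 0.189), with no filter on low counts (0.0526) or under library totals alone (-0.11, adjusted p = 0.253). Per length, AGO2 held 47.2% to 48.9% of the summed AGO1 to AGO4 TPM over all 4 libraries. AGO1 over AGO3 went from 2.88 and 3.05 to 4.17 and 4.09, with no overlap between groups. The exact permutation test gave p = 0.333, again the smallest that 2 libraries against 2 can give.

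The TNRC6 proteins are the scaffolds that link Argonaute to deadenylases. TNRC6B fell by 0.24 on the log2 scale (SE 0.060, adjusted p = 9.3e-04 in edgeR), whereas TNRC6A (-0.04, adjusted p = 0.48) and TNRC6C (-0.07, adjusted p = 0.353) did not pass. The TNRC6B call was lost without shControl replicate 2 (adjusted p = 0.0559) and under library totals alone (-0.13, adjusted p = 0.0669 in edgeR). CNOT6L, a deadenylase of the CCR4-NOT complex, was at 23.9 and 29.5 CPM in shControl and 17.6 and 17.7 in shNeuroD1 (log2 fold change -0.60, SE 0.10, adjusted p = 9e-06 in edgeR). DDX6, the helicase that couples CCR4-NOT to decapping, was at 249 and 276 CPM against 182 and 188 CPM (-0.51, SE 0.048, adjusted p = 9.7e-11 in edgeR).

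The list of let-7 uridylation and microRNA decay had 14 genes, of which 13 were tested, 7 called lower (53.8%) and 1 higher (7.69%). Of genes with a 3′ UTR, 34.1% were called lower and 27.2% higher, and of all genes 28.2% and 26.8%. The median log2 fold change of the list was -0.13. TUT4 and TUT7, enzymes that add uridines to let-7 precursors, were both lower. TUT4 was at 232 and 237 CPM against 212 and 218 CPM (log2 fold change -0.13, SE 0.044, adjusted p = 0.0152 in edgeR). TUT7 was at 33.4 and 36.5 CPM against 27.1 and 25.7 CPM (-0.41, SE 0.083, adjusted p = 1.1e-04 in edgeR). The TUT4 call was lost without shControl replicate 2, shNeuroD1 replicate 1 or shNeuroD1 replicate 2 (adjusted p = 0.0657, 0.203 and 0.0821 in edgeR) and under library totals alone (-0.01), and both genes took the other sign in the FPKM fit (0.20 and 0.07 on log2(FPKM + 1)). DIS3L2, the exonuclease that degrades the uridylated precursor, did not pass (0.12, adjusted p = 0.194 in edgeR), except under library totals alone (0.23, adjusted p = 0.0118). ERI1, an exonuclease of histone mRNA and small RNA ends, fell by 0.77 on the log2 scale (SE 0.080, adjusted p = 8.7e-10 in edgeR), and CUL3 fell by 0.42 (adjusted p = 1.3e-07).

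**Figure D4:**
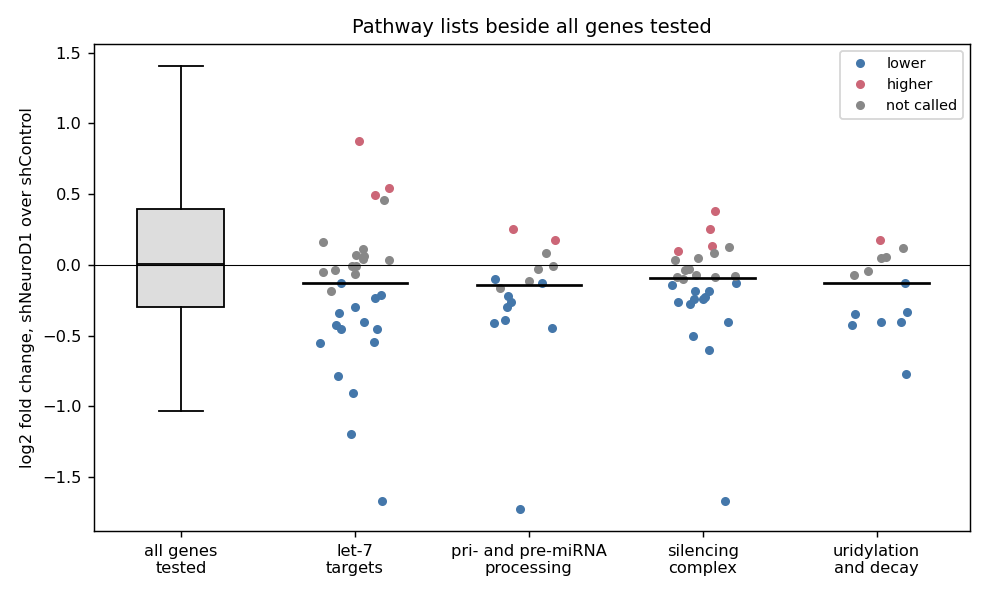
Log2 fold changes (shNeuroD1 over shControl) of the genes in each pathway list beside all genes tested. The box gives the median and quartiles of the 17537 genes with whiskers at the 5th and 95th percentiles. Points are genes, coloured by call, and black lines are list medians, which lie between -0.14 and -0.09 against 0.01 for all genes. The median of the 13107 tested genes with a 3′ UTR of at least 50 bases, not drawn, was -0.03.

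Mature let-7 was not measured. The RNA was selected for poly(A), and of 12 let-7 family hairpin genes with a row of counts, 10 had none in any library, with at most 6 counts over the 4 libraries in the others. Genes that enclose 9 of these 12 hairpins on the same strand could be read. The host of let-7a-1, let-7d and let-7f-1 in GENCODE 29 (ENSG00000269946) was not analysed here. MIR100HG, the long noncoding host of let-7a-2 on chromosome 11, had 283 and 319 counts in shControl against 1761 and 1815 in shNeuroD1, or 19.2 and 20.1 CPM against 116 and 119 CPM. The groups were far apart relative to their spread, and the log2 fold change was 2.58 (SE 0.067, adjusted p = 8.1e-25 in edgeR), also called in the FPKM fit (3.96 on log2(FPKM + 1)).

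HUWE1, a protein-coding ubiquitin ligase gene that encloses let-7f-2 and miR-98 on chromosome X, was at 343 and 372 CPM in shControl and 662 and 678 CPM in shNeuroD1. Its log2 fold change was 0.90 (SE 0.043, adjusted p = 3.9e-18 in edgeR), with 0.50 and no call on log2(FPKM + 1) (limma adjusted p = 0.311). WDR82, which encloses let-7g on chromosome 3 and was added by position, outside the host list, fell from 331 and 329 CPM to 251 and 244 CPM (-0.41, SE 0.042, adjusted p = 5.2e-10 in edgeR), but gave 0.20 on log2(FPKM + 1), not called in limma (adjusted p = 0.744). These 3 genes carry 4 of the 12 family hairpins.

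The other enclosing genes with counts did not pass. MIRLET7BHG (let-7a-3 and let-7b) was at 7.87 and 7.24 CPM in shControl and 6.57 and 6.30 in shNeuroD1 (log2 fold change -0.23, edgeR adjusted p = 0.246), and MIRLET7IHG gave 0.23 (edgeR adjusted p = 0.148, and 0.0301 under library totals alone). MIR99AHG (let-7c) gave -0.26 (adjusted p = 0.111, and 0.0253 in edgeR without shNeuroD1 replicate 2) and SPACA6 (let-7e), also added by position, 0.26 (adjusted p = 0.292). MIRLET7A1HG, as its coordinates stand in GENCODE 29, encloses no family hairpin and gave 0.12 (edgeR adjusted p = 0.61).

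**Figure D5:**
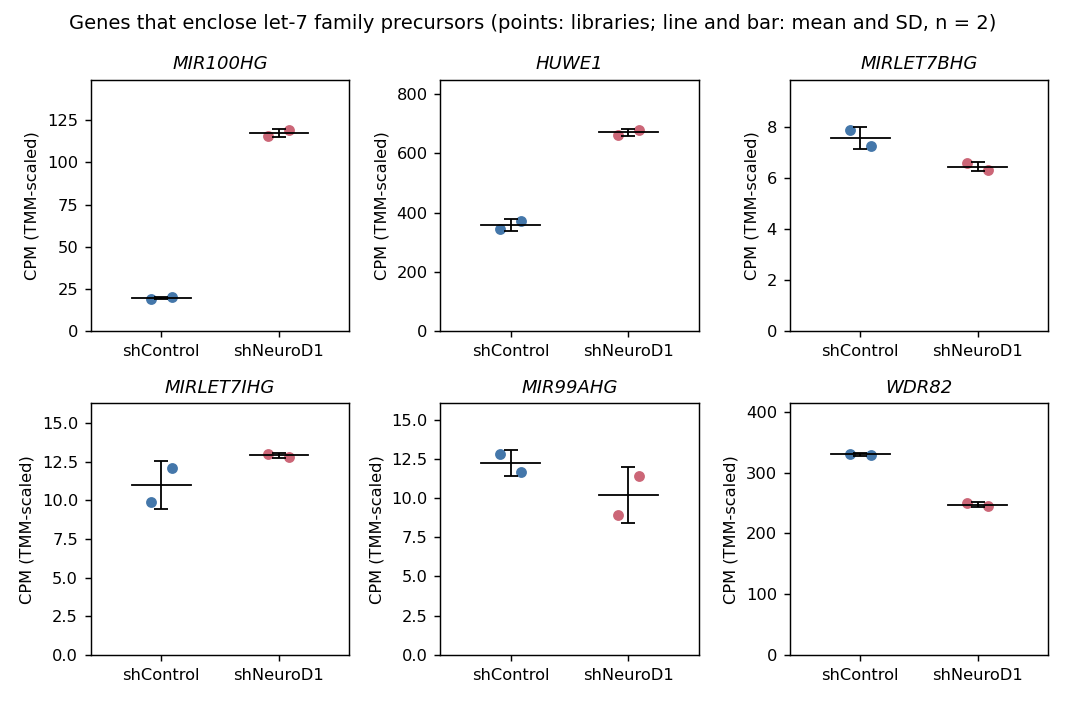
TMM-scaled CPM by library of 6 genes that enclose let-7 family hairpins, with axes starting at 0 (blue shControl, red shNeuroD1; line and bar are the mean and SD of n = 2). MIR100HG and HUWE1 are higher in both shNeuroD1 libraries, WDR82 is lower in both, and the other 3 did not pass the test.

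Over all tested genes with a 3′ UTR of at least 50 bases, median fold changes differed little between genes with and without let-7 matches. The median log2 fold change was -0.05 over 499 genes with an 8-base match, -0.04 over 1640 with only 7-base matches and -0.03 over 10968 with none. Among UTRs of 2000 to under 5000 bases, these medians were -0.07, -0.05 and -0.03, and 38.1%, 37.7% and 36.7% of genes were called lower. In the same order, 21.3%, 26.6% and 27.4% of genes were called higher. The 21 genes with at least 2 of the 8-base matches had a median of -0.35. They include LIN28B, IGF2BP1 and TRIM71, already given above as lower. Their UTRs had a median length of 5124 bases, against 946.5 for genes with no match, and they were not compared within a band of UTR length.

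A different 7-mer, GCAATTC, was earlier singled out on these same fold changes, so it is given as a description only. It lies in the NEUROD1 3′ UTR and within the 21-base target of the hairpin under which the study's supplement places both shNeuroD1 libraries. The target of the study's other hairpin does not hold it. Both targets were found whole in a NEUROD1 transcript. The mRNAs named here with this 7-mer thus share 7 bases with the former hairpin's own target. It occurs once in the 3′ UTR of LIN28B and once in that of DICER1, and in none of the other 8. It occurs in 7.13% of all 3′ UTRs searched. Tested genes that carry it had a median log2 fold change of -0.18 against -0.02 for those that lack it, and among UTRs of 2000 to under 5000 bases the medians were -0.18 and -0.02 as well. Among all tested genes with a 3′ UTR of at least 50 bases, 47.5% of those that carry it were called lower, against 32.9% of those that lack it. Over the 85 tested pathway genes, 14 carry it, TRIM71, KHSRP, DDX6, TNRC6B and AGO3 among them, and 10 of these were called lower, against 31 of the 71 that lack it. Its part in the fall of any of these genes was not tested. IGF2BP1, DROSHA, CDC25A, QKI, CNOT6L, TUT7 and ERI1 do not carry it.

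The promoter table of RefSeq (250 bases before to 50 after each start) held 14 starts of 7 of the 10 genes; IGF2BP1, HMGA2 and AGO2 have no entry. Of the E-box words searched on both strands, CAGATG was found in 2 of the 14, in DICER1 and HMGA1, against 14.7% of all 35116 promoters. CAGCTG was in 0 of the 14, against 17.9% of all.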

How the data were processed

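Polyadenylated RNA of 4 IMR-32 libraries was compared as 2 shControl against 2 shNeuroD1, grouped by the sample titles. The authors deposited raw read counts per Ensembl gene; the submitters' processing notes name cutadapt 1.9.1, HISAT2 2.0.1, HTSeq 0.6.1, DESeq2 and build hg38, and the strand setting is not given in the sources used here. The authors also deposited FPKM values of transcript starts, ends and splicing events for each library, listed only above 0, from a tool not given in the sources used here.

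Counts were fitted in edgeR 4.0.16 (R 4.3.3) with filterByExpr (minimum count 10), TMM scaling and the two-sided quasi-likelihood F test, with Benjamini-Hochberg adjustment over 17537 genes; calls were made at an adjusted p under 0.05. DESeq2 1.42.0, other scalings and filters, a replicate block, leaving out each library, and limma 3.58.1 on log2(FPKM + 1) were alternatives. Gene models and UTRs are those of GENCODE 29 on GRCh38.

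The 10 genes (members) and the lists were chosen with earlier results of these data known. Named beyond the members were genes of each list called with a log2 fold change beyond 1, filled up to 3 by size, and a fixed set of pathway genes. The limit of 3 counts covers counting error only.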

Additional observations from a re-analysis of the deposited data

Results flagged for a closer look

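A transcript start upstream of the annotated IGF2BP1 start, at chr17:48997120-48997238 on hg38, was listed in both shNeuroD1 libraries and in neither shControl library. It stood out because it appears in the deposited transcript tables, outside the comparison of counts, and is not listed in the controls. Its FPKM was 3.31 and 3.45 (mean 3.38), which was 8.52% and 10.4% of the summed start FPKM of IGF2BP1 in those libraries. A splicing event at the same FPKM ran over chr17:48997418-48997920 in shNeuroD1 replicate 1 alone and over chr17:48997404-48997920 in shNeuroD1 replicate 2 alone, so the listed structures differed. An IGF2BP1 transcript end at chr17:49038168-49038438 stood at 3.32 and 3.46 FPKM in shNeuroD1 against 0.159 and 0.147 in shControl. Among 145 starts, ends and splicing events listed for the 10 genes, the upstream start was the only 1 at an FPKM of at least 1 in both shNeuroD1 libraries and listed in neither control. The opposite pattern also occurred once, for an IGF2BP1 transcript end at chr17:49004601-49004858, with 15.3 and 3.05 FPKM in shControl only. These tables hold no counts, so the depth behind these values is unknown, and none of them was tested.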

How the results depend on the processing

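The LIN28B fall kept its direction under every alternative run and its call under all those on counts, from -0.48 to -0.34 with each library left out. On FPKM it was not called, at -0.26, -0.29 and -0.26 for log2(FPKM + 1), log2(FPKM + 0.1) and log2(FPKM + 1) with no filter on low values. These fits call few genes, 278 lower and 246 higher of 10084 in the first. On FPKM the genes called were 0 lower and 0 higher among the members, 1, 1 and 0 lower among let-7 targets, 1 lower among processing genes, and 0 elsewhere in the 4 lists. NEUROD1 itself was not called there (-0.96 on log2(FPKM + 1), limma adjusted p = 0.291). The cause was not tested.

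Scaling by library totals alone moved the median of all genes to 0.12 and the lower share of all calls from 51.3% to 37.3%. It gave 2 members higher (AGO2 and IGF2BP3), 7 let-7 targets, 4 processing genes and 3 decay genes higher, and 6 silencing genes lower. With no filter on low counts, and in DESeq2, 0 members and 2 silencing genes were higher. At an unadjusted p under 0.05, AGO2 was higher with no filter and not in DESeq2. With each library left out, members called ranged from 3 to 4 lower and from 0 to 1 higher, and silencing genes called higher from 1 to 4. HMGA2, fitted with no filter on low counts, was not called (0.39, SE 1.39, adjusted p = 0.868 in edgeR). With at most 3 counts in any library, that fit cannot tell a change from none.

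Signs turned under totals alone for HMGA1 (0.079), MYCN (0.105, called higher at an adjusted p of 0.0139 in edgeR), TNRC6A (0.073), TNRC6C (0.039) and XPO5 (0.0096). With a mean of at least 1 CPM, MYCN gave 0.0059. On log2(FPKM + 1), filtered or not, they turned for HMGA1 (0.29), AGO4 (-0.066), CDC25A (0.46), MYCN (0.13), TNRC6C (0.095), TUT4 (0.20), TUT7 (0.070), XPO5 (0.32) and WDR82 (0.20), and without the filter also for ERI1 (0.0027) and MIR99AHG (0.24). On log2(FPKM + 0.1) the values were 0.29, -0.18, 0.39, 0.13, 0.12, 0.21, 0.10, 0.36 and 0.21 for those 9 genes in that order. With each library left out, signs turned for AGO4 (-0.083 to 0.18), MYCN (-0.046 to 0.011), TARBP2 (-0.016 to 0.18), TNRC6C (-0.19 to 0.030) and MIRLET7A1HG (-0.071 to 0.30).

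Libraries that share a number showed little common deviation from their group means (correlation 0.016 across genes). This single value cannot tell whether they shared a culture, batch or preparation. With a replicate block LIN28B stood at -0.40, and 4 members were lower and 1 higher.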
